A study of Mus musculus with 6 samples.

Results

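The NRF2 antioxidant response genes described here are 10 genes: Nfe2l2, which encodes the transcription factor NRF2, its sensor Keap1, and the target genes Nqo1, Hmox1, Gclc, Gclm, Slc7a11, Gsr, Txnrd1 and Srxn1. They were taken by name, as all probes of the array that are not controls and whose annotated symbol is one of these genes, which gave 12 of 55681 probes. Liver RNA was compared between 3 control mice, given corn oil alone, and 3 mice dosed daily for 5 days with trichloroethylene (TCE) by gavage (1000 mg/kg b.w. per dose). All 6 animals were 7-week-old males of B6C3F1, a hybrid strain with high background rates of liver tumors, and carried no engineered allele. Each mouse had 1 single-dye (Cy3) array and none was pooled, while the livers were taken at a single time, shortly after the last dose, and other doses were not analysed here.

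NRF2 is held in the cytoplasm and sent for degradation by KEAP1, a protein rich in cysteines. When electrophiles or oxidants modify those cysteines NRF2 escapes, enters the nucleus, pairs with a small MAF protein and binds antioxidant response elements in its target genes. The targets supply glutathione, restore oxidized thiols, reduce quinones and break down heme. In liver, these genes are known for their response to electrophilic drugs and metabolites, and conjugation of TCE to glutathione is one of the routes by which it is metabolized.

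0 of the 9 measured members passed the threshold (a limma adjusted p of at most 0.05 together with a fold change of at least 2), where 1.73% of the 13284 measured genes did. 0 members also passed that adjusted p at any fold change, against 2.39% of all genes, and 2 members (Hmox1 and Srxn1) had an unadjusted limma p under 0.05, against 19.1%. Hmox1, which encodes the inducible heme oxygenase, had the largest difference, at 2.05-fold higher in the TCE group by its brighter probe, but its second probe did not show it. Srxn1, which encodes sulfiredoxin, had the smallest error relative to its difference and was 1.35-fold higher. Gclm, the regulatory subunit of the enzyme that starts glutathione synthesis, was the only measured member whose representing probe had a lower mean in the TCE group, and 1 mouse held most of that difference.

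The Hmox1 and Gsr genes each had a pair of probes, and these are printed because the differences within each pair had opposite signs. The probes are 60-base sequences, given 5′ to 3′ on the strand of the transcript, with positions on mm9, the build of the array annotation. Both genes lie on the plus strand. The Hmox1 probes start 3410 bases apart in the genome and share no position, and the Gsr probes start 75 bases apart. The first named of each pair is the brighter one, which stands for the gene in counts.
Hmox1 downstream probe, chr8:77624207-77624266: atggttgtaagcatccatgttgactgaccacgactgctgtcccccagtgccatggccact
Hmox1 upstream probe, chr8:77620797-77620856: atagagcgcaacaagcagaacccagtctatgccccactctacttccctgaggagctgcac
Gsr downstream probe, chr8:34808488-34808547: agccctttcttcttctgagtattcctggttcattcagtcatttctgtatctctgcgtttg
Gsr upstream probe, chr8:34808413-34808472: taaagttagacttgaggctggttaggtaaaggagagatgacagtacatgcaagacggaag

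Values below are log2 signals after quantile normalization, listed for mice 1, 2 and 3 of each group, and each difference is the TCE mean minus the control mean on that scale. A signal cannot be compared between probes, so no order of level among the genes is given. All 9 measured members were well above background on all 6 arrays, and 0 spots were saturated on any array. The lowest and highest numbers of probes well above background were 23537 and 24965 per array. Control mouse 1 had its own slide and scan, while the arrays of the other 5 mice shared a slide. Across 10 hepatocyte markers, all measured, the summed signal was 1737000 to 1795000 in control mice and 1621000 to 1768000 in TCE mice. Quantile normalization gives every array the same set of values, and Alb and Serpina1a, the largest signals here, took repeated ones. The sum is thus partly fixed by that step and cannot show an equal share of hepatocytes. In 1 marker (Tat) all TCE mice lay above all control mice, against 17.1% of all genes. In 3 (Apoa1, Apob and Cps1) they lay below, against 10.8%. In a whole liver sample, fewer cells of a type and less RNA per cell cannot be told apart.

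**Figure D1:**
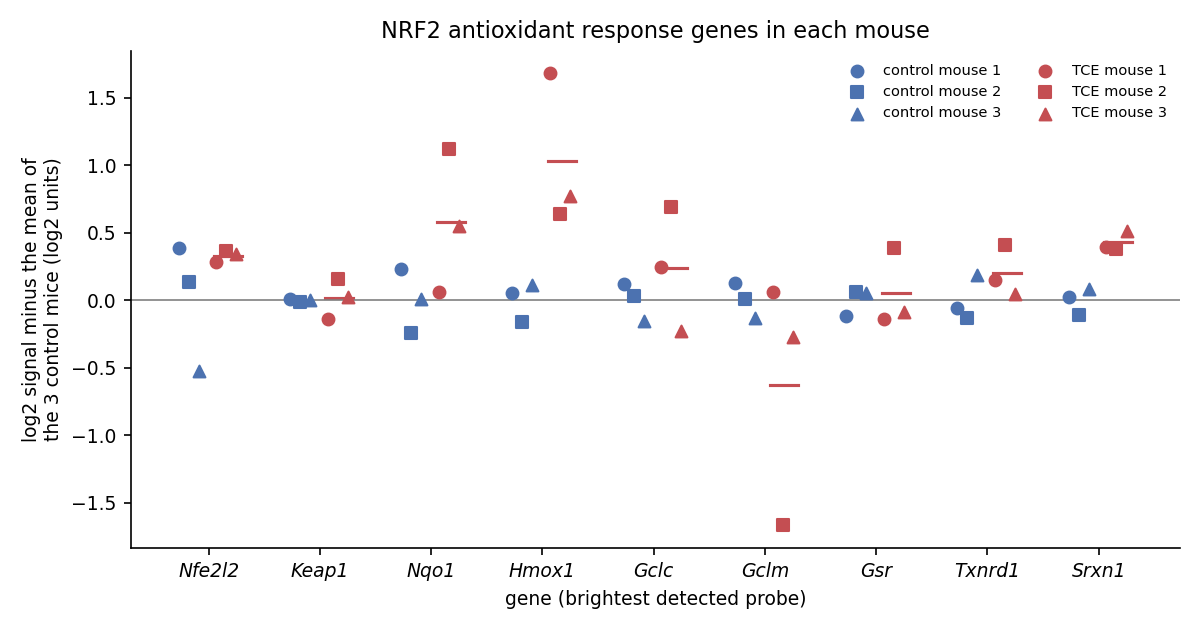
Signal of the 9 measured genes in each mouse, as the log2 signal minus the mean of the 3 control mice, with 1 symbol per mouse and a short line at the mean of the TCE group. All TCE mice lie above all control mice in Hmox1 and Srxn1, and TCE mouse 2 stands 1.67 below the control mean in Gclm.

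Of the sensor and the factor, Keap1 differed least. It gave 11.50, 11.47 and 11.49 in control mice and 11.35, 11.64 and 11.51 in TCE mice. The difference was 0.01 ± 0.12 (SE, n = 3 each; limma adjusted p = 0.968), and the 95% confidence interval from -0.27 to 0.30 does not reach 2-fold. The 60-base Keap1 probe is placed over 441 bases of chromosome 9 (chr9:21035292-21035732, minus strand), so it covers separate blocks of the genome. Nfe2l2 gave 11.74, 11.49 and 10.83 in control mice and 11.63, 11.71 and 11.70 in TCE mice, with the probe at chr2:75513771-75513830 on the minus strand. The groups overlapped, since control mouse 1 was the highest of all, and the spread lay in the control group, with an SD of 0.47 against 0.042. The difference of 0.33 ± 0.24 (SE, n = 3 each) had a limma adjusted p of 0.52, and was 0.07 without control mouse 3. NRF2 is regulated chiefly at the level of the protein, which arrays do not measure.

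Among the enzymes that act on heme and quinones, Hmox1 cleaves heme to biliverdin, iron and carbon monoxide. Its downstream probe gave 10.05, 9.84 and 10.11 in control mice and 11.68, 10.64 and 10.78 in TCE mice. All 3 TCE mice lay above all 3 control mice, and TCE mouse 1 was the highest by 0.91. The difference was 1.03 ± 0.28 (SE, n = 3 each), or 2.05-fold with a 95% interval of 1.27 to 3.29, and the limma p was 0.0097 before and 0.139 after adjustment over all probes. This difference was larger than that of 95.7% of all measured genes, yet it did not pass the test. Without TCE mouse 1 it was 0.71, which is under 2-fold. In the same mouse the summed signal of 8 endothelial markers was 13230, against 23560 to 25660 in the other mice, and its part in the Hmox1 difference was not tested. The sum of bile duct markers, 4 measured of 7, was lower in every TCE mouse (1302 to 1429) than in any control mouse (1628 to 1960). Cdh1, the largest signal in that sum, was the only measured bile duct marker whose groups did not overlap. Krt19, Sox9 and Spp1 had lower means in the TCE group, with groups that overlapped.

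The upstream Hmox1 probe gave 8.02, 7.09 and 7.50 in control mice and 8.02, 6.99 and 7.32 in TCE mice, all well above background. Its groups overlapped throughout, and the difference was -0.09 ± 0.34 (SE, n = 3 each; limma adjusted p = 0.919). Its 95% interval ran from -0.90 to 0.72 on the log2 scale and that of the downstream probe from 0.35 to 1.72, so the intervals overlap. The downstream signal exceeded the upstream one by 2.03, 2.75 and 2.62 in control mice and by 3.66, 3.66 and 3.46 in TCE mice. This gap was larger in every TCE mouse than in any control mouse, by 1.12 on average. An exact permutation test over mice (two-sided) gave p = 0.1, the smallest that 3 against 3 animals allow. Of the 2 pairs of probes compared in this way, that of Gsr gave a gap of 0.24 (exact permutation p = 0.2), and both p-values were 0.2 after Benjamini-Hochberg adjustment over the 2 pairs. Which Hmox1 probe follows the transcript better was not tested.

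**Figure D2:**
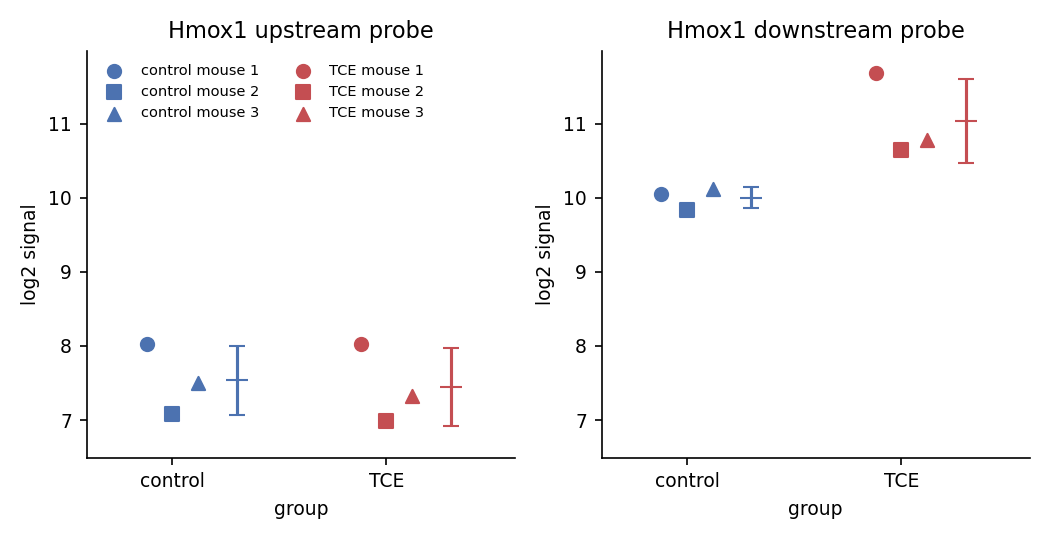
Log2 signal of both Hmox1 probes in each mouse, by group, with the mean and SD (n = 3) beside the points. On the downstream probe the TCE mean is 11.04 ± 0.57 and all control mice lie below it, while the upstream probe has means of 7.53 ± 0.47 and 7.44 ± 0.53.

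The 3 detected genes outside the members whose profiles were most like that of the downstream Hmox1 probe over the 6 arrays, each profile being centred on its own mean, were Rab3b, with a root mean square difference of 0.17, Fbxo2 with 0.17 and Slc36a4 with 0.20, of 13271 genes searched. As the choice of near profiles fixes, TCE mouse 1 was the highest of the 6 mice in each, at 8.34 in Rab3b, 7.79 in Fbxo2 and 7.85 in Slc36a4. None of the 3 passed the limma test (adjusted p = 0.207, 0.195 and 0.324).

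Nqo1 encodes a reductase that takes quinones to hydroquinones in a single step and is the usual marker of NRF2 activity. It gave 6.58, 6.10 and 6.35 in control mice and 6.40, 7.47 and 6.89 in TCE mice, at chr8:109912440-109912499 on the minus strand. TCE mice 2 and 3 were above all controls, while TCE mouse 1 was among them. The difference was 0.58 ± 0.28 (SE, n = 3 each; limma adjusted p = 0.352), and 0.30 without TCE mouse 2. Nqo1 was also the member most open to the background correction, since the difference was 0.18 (limma adjusted p = 0.635) with normexp, another way to subtract background. The 95% interval, 0.928-fold to 2.40-fold, includes both no difference and a doubling of the signal.

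The next group supplies glutathione: Gclc and Gclm encode the catalytic and regulatory subunits of glutamate-cysteine ligase, and Slc7a11 the cystine carrier xCT. Gclc gave 13.95, 13.86 and 13.68 in control mice and 14.08, 14.52 and 13.60 in TCE mice, with the probe at chr9:77641296-77641355 on the plus strand. TCE mice 1 and 2 were the highest and TCE mouse 3 the lowest of the 6, and the difference was 0.24 ± 0.24 (SE, n = 3 each; limma adjusted p = 0.65). It was 0.01 without TCE mouse 2 and 0.47 without TCE mouse 3. Gclm gave 10.83, 10.71 and 10.57 in control mice and 10.77, 9.04 and 10.43 in TCE mice. The signal of TCE mouse 2 was the lowest by 1.39, while TCE mouse 1 lay within the control range.

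The fitted difference of Gclm was -0.63 ± 0.43 (SE, n = 3 each; limma adjusted p = 0.504), and it was -0.11 without TCE mouse 2. Over the control mice the SD was 0.13, and over the TCE mice 0.92. In that same mouse Gclc had its highest signal, so the subunits went opposite ways there. The Gclm probe is placed over 2636 bases (chr3:121962174-121964809, plus strand), hence over separate blocks, and no second probe was there to compare. On none of the 6 arrays was Slc7a11 well above background. Its signals, 2.63 to 2.86, were below the lowest signal called well above background on each array (4.54 to 5.02), so the gene was not tested and its absence from the liver is not shown.

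TCE mouse 2 was also lowest in Blvrb, biliverdin reductase B, which is abundant in red cells. Blvrb gave 12.71, 11.90 and 11.90 in control mice and 11.13, 10.66 and 12.24 in TCE mice, a difference of -0.82 (limma adjusted p = 0.388). The summed signal of red cell markers was lowest in that mouse too. The sums were 110800, 78480 and 77160 for control mice and 57970, 29890 and 91820 in TCE mice, over 4 measured markers. Alas2, the erythroid enzyme that starts heme synthesis, fell in the TCE group by 0.91 (limma adjusted p = 0.0215, lost in 5 of 6 fits without 1 of the mice), with groups that did not overlap. The part of red cells in the Gclm and Blvrb signals was not tested. The summed signal of 4 measured lymphocyte markers was 16250 to 19910 over the control mice and 6015 to 15850 over the TCE mice. The largest signal in it was Cd4, at 13.81, 14.09 and 14.14 in control mice and 13.25, 12.20 and 13.78 in TCE mice. Cd4 was the only measured lymphocyte marker whose groups did not overlap, and Cd79a had a higher mean in the TCE group. TCE mouse 2 had the lowest sum, but not the lowest signal of every marker: Cd79a was highest there (6.49).

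**Figure D3:**
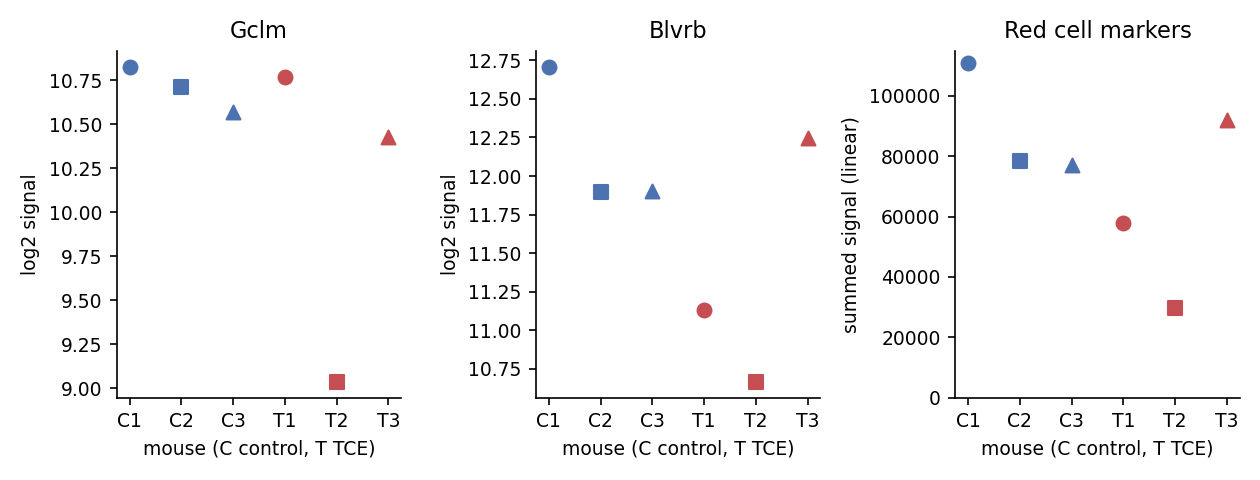
Log2 signal of Gclm, log2 signal of Blvrb, and summed linear signal of 4 red cell markers for control mice C1 to C3 and TCE mice T1 to T3, 1 point per mouse. TCE mouse 2 is the lowest point in each panel, at 9.04, 10.66 and 29890.

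The remaining members restore oxidized thiols. Srxn1 encodes sulfiredoxin, which rescues peroxiredoxins whose active cysteine has been over-oxidized. In control mice 1, 2 and 3 its signal was 12.00, 11.87 and 12.06, and in TCE mice 12.37, 12.36 and 12.49 in TCE mice, at chr2:151937009-151937068 on the plus strand. Every TCE mouse was above every control mouse, and the SDs were 0.098 and 0.074. The difference of 0.43 ± 0.11 (SE, n = 3 each) is a fold change of 1.35 with a 95% interval of 1.11 to 1.63. The limma p was 0.0081 before and 0.130 after adjustment, and the difference ranged from 0.38 to 0.47 with 1 mouse left out.

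Txnrd1 encodes the cytosolic thioredoxin reductase, which uses NADPH to reduce thioredoxin. It gave 12.76, 12.69 and 13.01 in control mice and 12.97, 13.23 and 12.87 in TCE mice, at chr10:82360230-82360289 on the plus strand. The groups overlapped, and the difference was 0.20 ± 0.15 (SE, n = 3 each; limma adjusted p = 0.535), or 0.10 without TCE mouse 2. Gsr encodes glutathione reductase, which returns glutathione disulfide to its reduced form. Its brighter probe gave 13.10, 13.27 and 13.27 in control mice and 13.07, 13.60 and 13.13 in TCE mice, a difference of 0.05 ± 0.17 (SE, n = 3 each; limma adjusted p = 0.907).

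The other Gsr probe gave 11.65, 11.84 and 11.63 in control mice and 11.42, 11.59 and 11.54 in TCE mice. All TCE mice lay below all control mice on it, by 0.19 ± 0.12 between the means (SE, n = 3 each; limma adjusted p = 0.459). Neither 95% interval reached 2-fold, as it ran from -0.36 to 0.46 for the first and from -0.48 to 0.10 for the second.

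**Figure D4:**
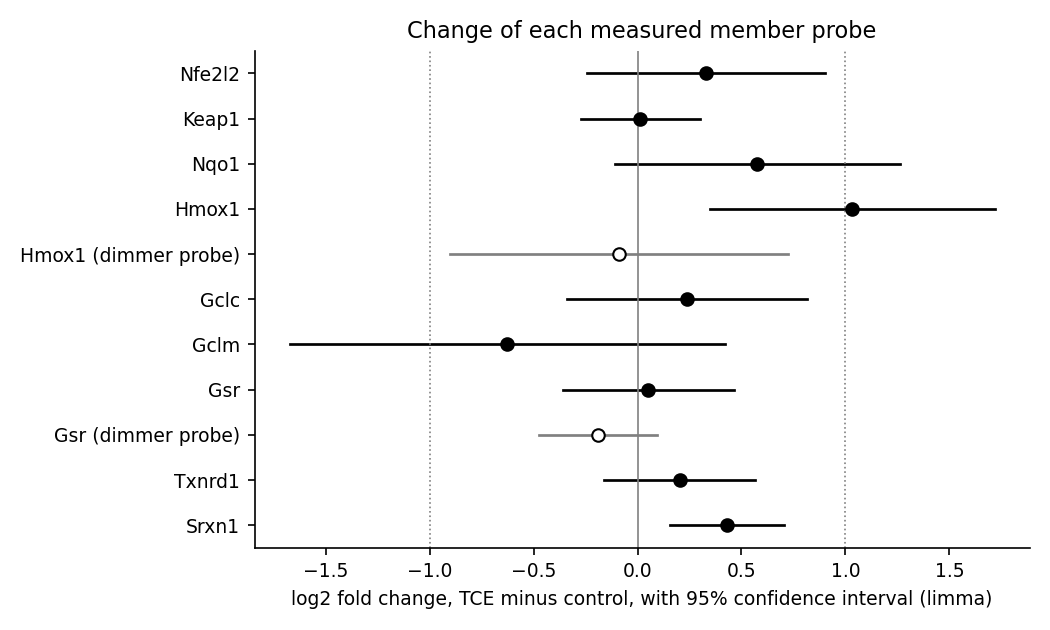
Difference between the group means (TCE minus control, log2 scale) for the 11 detected probes of the 9 measured genes, with 95% confidence intervals from limma, open symbols for the dimmer probe of a gene and dotted lines at 2-fold. The intervals of Nqo1, Hmox1 and Gclm by the brightest probe reach past 2-fold, while those of the other 6 genes do not.

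Taken by counts, 8 of the 9 measured members had a higher mean in the TCE group and 1 a lower one, but for Keap1 and Gsr, at 0.01 and 0.05, the sign turned with the processing (to -0.05 for Gsr with normexp background correction and to -0.03 for Keap1 with array weights). The median difference was 0.24, where that of all 13284 measured genes was 0.02, and it was 0.10 without TCE mouse 2. All 3 TCE mice were above all 3 control mice in 2 members, against 17.1% of all genes, and below them in 0 members, against 10.8%. Without control mouse 1 the counts were 4 above and 0 below, against 22.2% and 15.9% of all genes, and without TCE mouse 1 they were 4 above and 1 below (Gclm), against 21.2% and 13.9%. The 95% interval of 6 members (Nfe2l2, Keap1, Gclc, Gsr, Txnrd1 and Srxn1) lay between a 2-fold fall and a 2-fold rise. For Nqo1, Hmox1 and Gclm a change of 2-fold or more was neither shown nor left outside the interval. By the methods' t-test without adjustment, with the same fold change, 1 member (Hmox1) would be called, against 3.09% of all genes. Averaged over the 9 members, the distance from the control mean was 0.09, -0.05 and -0.04 in control mice 1 to 3 and 0.29, 0.28 and 0.19 in TCE mice 1 to 3. TCE mouse 2 had the highest signal in 5 members, and control mouse 2 the lowest in 4.

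Of the 10 members, 7 had a promoter window in the RefSeq table used (GRCm38.p6), which runs from 250 bases before to 50 bases after a gene start. The core of the antioxidant response element was searched only as TGACNNNGC, on both strands. It was found in the windows of 4 members, Nfe2l2, Gclm, Txnrd1 and Srxn1, in 1 of several windows for Txnrd1. By comparison 14% of the 27025 genes with a window hold it, or 12.4% of 32851 windows, as do 12 of the 39 other NRF2 target genes that have one. The windows of Srxn1 and Gclm are printed because these members hold the core and stand at either end of the precision found here, the first with little spread and the second with the most. Capitals mark the core and any match to TGACTCA, which is found in 5.2% of windows. Hmox1, Gclc and Gsr have no window in the table.
Srxn1, chr2:152105274-152105573, plus strand: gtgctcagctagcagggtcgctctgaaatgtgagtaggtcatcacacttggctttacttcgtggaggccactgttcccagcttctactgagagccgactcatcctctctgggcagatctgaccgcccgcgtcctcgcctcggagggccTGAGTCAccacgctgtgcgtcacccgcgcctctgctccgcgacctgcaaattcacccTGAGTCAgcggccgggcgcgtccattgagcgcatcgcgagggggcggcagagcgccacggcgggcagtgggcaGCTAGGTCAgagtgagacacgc
Gclm, chr3:122245307-122245606, plus strand: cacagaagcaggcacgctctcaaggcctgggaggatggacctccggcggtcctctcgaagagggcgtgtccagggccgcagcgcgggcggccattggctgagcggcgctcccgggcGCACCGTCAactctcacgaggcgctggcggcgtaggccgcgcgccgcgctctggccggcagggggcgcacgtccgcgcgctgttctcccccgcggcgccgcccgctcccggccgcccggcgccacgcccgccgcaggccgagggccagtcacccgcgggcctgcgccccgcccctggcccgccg
The Srxn1 core match lies 28 bases after the gene start and reads TGACCTAGC on the minus strand, and the window holds a pair of TGACTCA matches further upstream. The one nearer the gene start is followed by GC and reads TGAGTCAGC on the plus strand. That form has G where the searched core has C, so the counts of the core leave such sites out. The Gclm match lies 134 bases before the start and reads TGACGGTGC on the minus strand. Such matches describe letters, not binding.

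The wider pathway was described with lists of genes named for their function. Of 42 measured genes among 44 other NRF2 targets, 2 rose past the threshold and 0 fell, or 5 and 0 at the adjusted p alone. All TCE mice lay above all control mice in 15 of them and below in 2, and the median difference was 0.18. These counts stand beside 1.73% of all measured genes past the threshold, 2.39% at the adjusted p, 17.1% with all TCE mice above and 10.8% with all below. Me1, the cytosolic malic enzyme that yields NADPH, gave 13.65, 13.50 and 14.03 in control mice and 15.27, 15.03 and 14.89 in TCE mice. It rose by 1.34 on the log2 scale (limma adjusted p = 0.0261), and by 1.73 and 1.40 on its other probes. Gsta2, a glutathione transferase of the alpha class, gave 11.03, 10.97 and 11.44 in control mice and 12.46, 12.39 and 12.00 in TCE mice, a rise of 1.14 (limma adjusted p = 0.0432).

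Under 2-fold, the transferases Gstm4 and Gstm3 rose by 0.98 (limma adjusted p = 0.0459) and 0.82 (limma adjusted p = 0.0492). The second probe of Gstm3 rose by 1.34 (limma adjusted p = 0.0145), and that of Gstm4 had a difference of 0.80 (limma adjusted p = 0.0811). Transferases of one class have similar sequences, and the binding of transcripts of one gene to the probe of another was not tested. Gpx2, a glutathione peroxidase, was well above background in all TCE mice and in 0 control mice (4.78, 4.68 and 4.78 against 5.79, 5.77 and 5.51). Its rise was at least 1.82-fold. For this, every control array was set to the lowest signal that it called well above background, or to that of the probe where higher. That bound was not tested, and the limma adjusted p of 0.0236 belongs to the fitted difference of 0.95 on the control signals as measured. Since Gpx2 entered the test only through the group in which it is high, its call is a description. In 6 fits that each left out 1 mouse, the calls of Gsta2 and Gstm3 were lost in 6 of 6 fits and those of Me1, Gpx2 and Gstm4 in 5 of 6. Over these fits, which have fewer arrays, the differences stayed at 1.22 to 1.49 for Me1, 1.05 to 1.28 for Gsta2, 0.72 to 0.93 for Gstm3 and 0.89 to 1.15 for Gstm4. The largest difference in the list, named after its values were seen, was that of G6pdx, which encodes the first enzyme of the pentose phosphate pathway (1.48, limma adjusted p = 0.0791). Gstp1 and Ugdh, also named after their values were seen, were those with all TCE mice below all control mice. They differed by -0.64 (limma adjusted p = 0.0581) and -0.34 (limma adjusted p = 0.296).

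**Figure D5:**
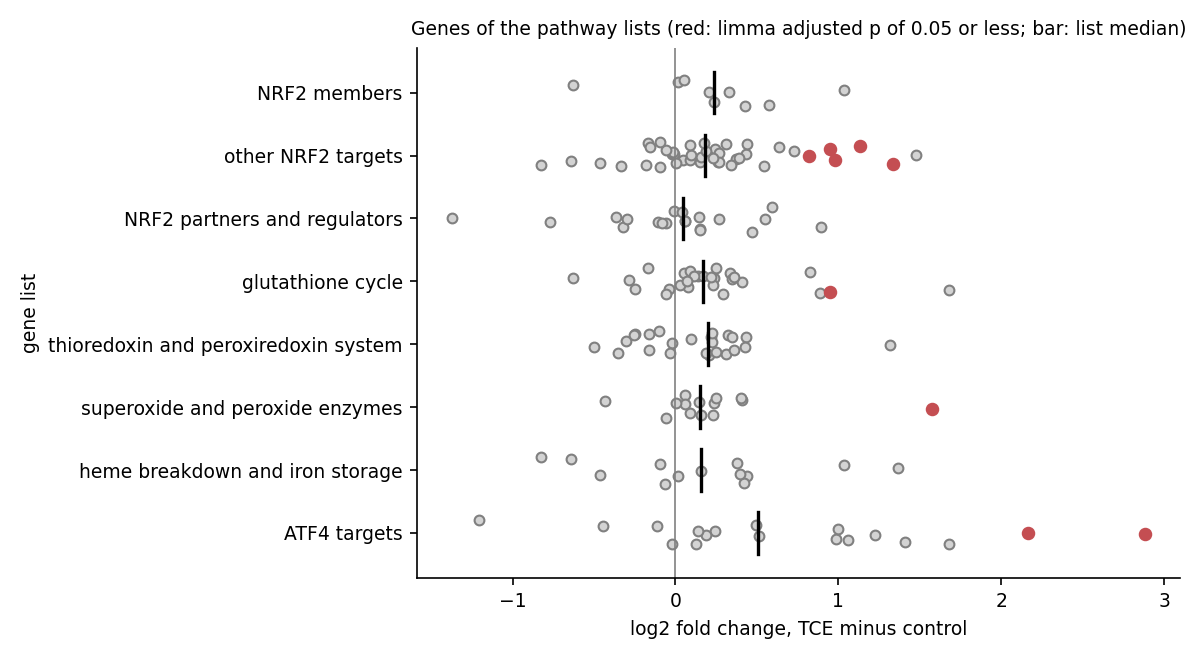
Difference between the group means (TCE minus control, log2 scale) of every measured gene in 8 lists, 1 circle per gene and a bar at the median of each list, with genes at a limma adjusted p of 0.05 or less in red. Some genes stand in more than 1 list, and Gpx2 is drawn at its fitted value although its control signals were not well above background. The 9 members hold no red circle, and their median is 0.24.

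Of 20 measured partners and regulators of NRF2, 0 passed at the adjusted p. Bach1, which competes for the same elements, differed by 0.15 (limma adjusted p = 0.748), and Sqstm1, whose protein takes KEAP1 to autophagy, by 0.06 (limma adjusted p = 0.857). A dimmer Sqstm1 probe differed by 0.53 (limma adjusted p = 0.222), with groups that did not overlap. Mafg, one of the small MAF partners, was lower in every TCE mouse than in any control mouse, by 0.37 (limma adjusted p = 0.326), and the difference was also negative on its other 3 probes. The other small MAF genes, named after their values were seen, differed the other way, Maff by 0.89 (limma adjusted p = 0.193) and Mafk by 0.27 (limma adjusted p = 0.330), with every TCE mouse above every control mouse. In the glutathione cycle 1 of 27 measured genes passed at the adjusted p, and this was Gpx2, which the detection filter kept only through the TCE group. Gss, which completes glutathione synthesis, differed by -0.17 (limma adjusted p = 0.716). Of 24 genes of the thioredoxin and peroxiredoxin system 0 passed, and Txn1, thioredoxin itself, had a difference of 0.43 (limma adjusted p = 0.338) with groups that did not overlap.

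Among 14 enzymes and carriers that act on superoxide and peroxides, 1 passed. It was Ucp2, a carrier of the mitochondrial inner membrane, at 8.17, 8.21 and 8.25 in control mice and 9.92, 9.53 and 9.90 in TCE mice. Ucp2 rose by 1.57 (limma adjusted p = 0.0065), and this call held whichever mouse was left out (6 of 6 fits). The enzymes in the list that detoxify directly were not called: catalase Cat differed by 0.23, Sod1 by -0.06, Sod2 by 0.24 and Gpx1 by 0.09 (limma adjusted p = 0.458, 0.881, 0.355 and 0.728). Of 13 genes of heme breakdown and iron storage 0 passed, and the constitutive heme oxygenase Hmox2 differed by 0.01 (limma adjusted p = 0.974).

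Hmox1 and Slc7a11 are also induced by other stress factors, so targets of ATF4, the factor of the integrated stress response, were listed beside them. Of 18 measured ATF4 targets 2 rose past the threshold and 0 fell, with a median difference of 0.50, where 1.73% of all measured genes passed in either direction. Atf3, a transcription factor of the stress response, gave 6.08, 4.79 and 5.28 in control mice, 2 of which were well above background, and 8.67, 8.54 and 7.58 in TCE mice. Its fitted difference was 2.88 (limma adjusted p = 0.0296), but it entered the test through the TCE group alone, and a filter for genes well above background on all 6 arrays leaves it out. Vldlr, a lipoprotein receptor, rose by 2.17 (limma adjusted p = 0.0155). Leaving out each mouse in turn lost these calls in 4 and 2 of 6 fits. Over all pathway lists together 5 different genes (Me1, Gsta2, Ucp2, Atf3 and Vldlr) passed the threshold. The count was 4 among genes well above background on all 6 arrays, where 166 of all genes passed, against 230 in the main fit. It was 1 of 91 without control mouse 2, 2 of 101 without TCE mouse 1 and 3 of 166 without TCE mouse 2.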

How the data were processed

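Liver RNA of 6 mice was hybridized to 1-colour arrays. The authors used Feature Extraction 10.7.1.1 on the scans, and its deposited output gives each spot an intensity corrected for background. A second table deposited by the authors holds the log2 mean of each group after quantile normalization, used here for names, positions and as an alternative. Control spots and 123 to 189 outlier spots per array were left out, and the log2 intensities (no pseudocount added) were averaged over the spots of each probe and quantile normalized.

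The test was that of limma 3.58.1 (R 4.3.3; lmFit, eBayes, two-sided, no covariate) over the 22731 probes that were well above background in every mouse of a group, with Benjamini-Hochberg adjustment over all of them. It was first tested on simulated data. A gene was represented by its brightest detected probe. The number of arrays limits the precision. Named beside the members were up to 6 genes per list with the largest differences at an adjusted p of 0.05 or less, fixed pathway genes, and the 3 profiles nearest to Hmox1. The members, lists and tests were chosen with earlier results of these data known. Alternatives covered scaling, background correction, filters, outlier spots, blocks, weights, variance model, test, fold change, probe choice and each mouse left out.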

Additional observations from a re-analysis of the deposited data

How the results depend on the processing

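Across the alternatives run, 0 members were past the threshold except by the methods' t-test without adjustment, which gave 1, and 2 members at any fold change. Nfe2l2, Nqo1, Gclc, Txnrd1 and Srxn1 stayed higher and Gclm lower in the TCE group in all of them, with limma adjusted p for Srxn1 of 0.0672 to 0.251 outside the fits with 1 mouse left out. Hmox1 and Gsr turned to -0.089 and -0.19 with their dimmer probes, a choice made after seeing the data. With the mean of the detected probes 1 member had groups that did not overlap, and Hmox1 differed by 0.47. Slc7a11, tested only without the filter on dim probes, differed by 0.07. Pathway genes past the threshold, 5 in the report, numbered 1 without the filter on dim probes and 8 with the mean of probes. By the methods' t-test they numbered 12, and 0 after its adjustment. Over all genes 230 passed in the report, 66 without that filter and 278 with the mean of probes. The t-test gave 411 before and 20 after adjustment. With 1 mouse left out, members without overlap numbered 2 to 5, their median difference was 0.10 to 0.32 and the pathway genes numbered 1 to 5. In these fits 91 to 186 of all genes passed the threshold. Mice with the same replicate number did not deviate together (correlations 0.09, 0.0066 and -0.09, and between -0.11 and 0.11 over all control and TCE mice), so the numbers were not taken to pair them. With a replicate block 0 members and 0 pathway genes were past the threshold, where 45 of all genes were. The median difference of all detected probes was 0.02 as reported, 0.04 with scaling to the 75th percentile and 0.02 with normexp background correction. Slide and group can be told apart only in part, since the slide block removes control mouse 1. With it Hmox1 differed by 1.06 and Srxn1 by 0.44. The arrays cannot separate a change in all cells from one in few, and Slc7a11 lay below what they measure.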
